A study of Mus musculus with 9 samples.

Results

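Described here are 9 genes of cardiac excitation: *Kcnj2*, *Kcnj3*, *Kcnq1*, *Kcnh2*, *Kcnd2* and *Kcnd3*, which encode pore-forming subunits of potassium channels, *Hcn2* and *Hcn4*, which encode pacemaker channels, and *Gja1*, which encodes the gap junction protein connexin 43. They were chosen by name and picked out of the deposited tables by symbol, and all 9 were found among 15122 symbols. All 9 also had a mean of at least 10 normalized reads in each comparison and were tested in each. No sodium channel is among them.

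In a ventricular cardiomyocyte, inward rectifier channels such as those built from *Kcnj2* hold the resting potential, and channels built from *Kcnj3* open on muscarinic signalling, mainly in atrial and nodal cells. *Kcnd2* and *Kcnd3* carry the early transient outward current, and *Kcnh2* and *Kcnq1* carry the rapid and the slow delayed rectifier currents that end the action potential. HCN channels open on hyperpolarization and drive spontaneous beating in the sinus node, with *Hcn4* the main nodal form, and *Hcn4* falls in the working ventricle as the heart matures. Connexin 43 couples ventricular myocytes at the intercalated disc and is also made by cardiac fibroblasts.

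The cells were neonatal rat ventricular myocytes (NRVMs), isolated from Sprague-Dawley rats aged 1 to 2 days and cultured for 48 h before infection. Every group received an adenovirus at a multiplicity of infection of 50, with a cytomegalovirus promoter and a red fluorescent protein in the vector: LacZ carried bacterial β-galactosidase as the control, Nrf1 carried mouse Nrf1 (encoded by *Nfe2l1*) and Nrf2 carried mouse Nrf2 (encoded by *Nfe2l2*). Both factors are basic leucine zipper proteins of the stress response. Cells were collected 48 h after infection, with 3 mRNA libraries per group, and the promoter acts in any infected cell of the culture. The sample records name mouse as the organism, but the cells, the strain and the genome build are those of rat.

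The deposited tables hold group means, and these were solved back into whole reads of each library, called a, b and c within a group from the deepest to the shallowest. Libraries held between 7874461 and 11960378 reads assigned to genes. Levels below are reads divided by a size factor computed over the 9 libraries, and they were not compared between genes, since gene lengths of the rat build were not used here. Differences are on the log2(normalized reads + 1) scale from the limma fit of each pair of groups, with p-values adjusted over all genes tested by the Benjamini-Hochberg method. Nothing in the labels says that the libraries of a group came from separate cultures, so the p-values measure only the spread between these libraries, which may be technical.

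*Nfe2l2* was at 3399 to 3493 normalized reads in LacZ, 2815 to 2894 in Nrf1 and 67554 to 78772 in Nrf2, highest in the libraries labelled Nrf2, and *Nfe2l1* was not analysed here. Of the LacZ libraries, b had the highest summed reads of leukocyte markers and the lowest of cardiomyocyte markers. Its summed reads of 8 leukocyte markers were 2553, against 1693 and 1810, and its summed reads of 11 cardiomyocyte markers were 148121, against 159817 and 170628. Among the 9 genes, leaving out LacZ library b changed the call of *Kcnq1* for Nrf1 and of *Gja1* for Nrf2, both given below. By chi-square per gene, Nrf2 library c differed more from Nrf2 libraries a and b (3.56 and 4.47) than these did from each other (1.97). Without Nrf2 library c the call of *Kcnq1* for Nrf2 changed, as given below.

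All 11 cardiomyocyte markers found, of 12 listed, were read in every group, the ventricular *Myl2* among them. Markers of other cells were present too and moved with the groups, as the plot of summed marker reads shows. The 10 fibroblast markers, all tested, summed to 122831 to 128759 normalized reads in LacZ, 31327 to 33754 in Nrf1 and 64054 to 69172 in Nrf2. In bulk RNA, fewer cells of a type and less RNA per cell cannot be told apart. The part of these shifts in the channel results was not tested.

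**Figure D1:**
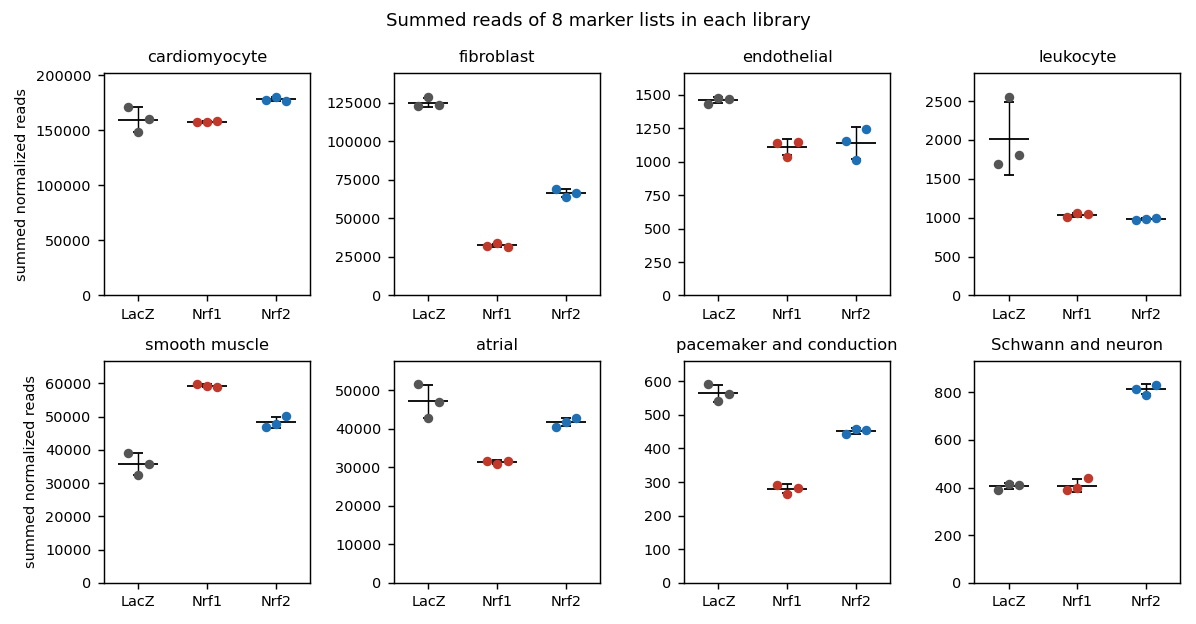
Summed normalized reads (vertical axes, from 0) of 8 lists of cell type markers in each library of the LacZ, Nrf1 and Nrf2 groups; points are libraries a, b and c from left to right, and the bar with whiskers is the mean ± SD of 3. The fibroblast sum was 125155 on average in LacZ, 32480 in Nrf1 and 66650 in Nrf2, and the leukocyte sum of LacZ library b was 2553.

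Among the 9 genes, Nrf1 raised 5 (*Kcnj3*, *Kcnh2*, *Kcnd2*, *Hcn4* and *Gja1*) and lowered 2 (*Kcnq1* and *Kcnd3*) relative to LacZ, by 1.24 to 1.45-fold upwards and to 0.859 to 0.867 of the control downwards, and the latter 2 turned to 0.10 and 0.090 on the log2 scale when centred on cardiomyocyte markers. *Kcnj2* and *Hcn2* did not pass the test. Of all 11202 genes tested in this comparison, 34.7% were called higher and 32.3% lower, and most genes thus passed, as most of the 9 did. None of the 9 passed an adjusted p under 0.05 together with a fold above 1.5, a rule that 27.6% of all genes passed. The median log2 difference of the 9 was 0.31, beside 0.0066 over all genes.

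Nrf2 raised 2 of the 9, *Hcn4* by 2.01-fold and *Hcn2* by 1.51-fold, and lowered *Kcnd3* to 0.747 of the LacZ level. The other 6 did not pass. Over the 11386 genes tested, 28.6% were called higher and 26% lower. Both raised genes were also past 1.5-fold, which 18.1% of all genes were. The median of the 9 was 0.13, beside -0.0014 over all genes. The comparisons of Nrf1 and Nrf2 with LacZ share the LacZ libraries and are not independent.

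Between the factors, 3 genes were higher in Nrf2 (*Kcnq1*, *Hcn2* and *Hcn4*) and 4 were lower (*Kcnh2*, *Kcnd2*, *Kcnd3* and *Gja1*). Among 11307 genes tested, 28.6% were called higher and 30.2% lower in Nrf2, and 15.2% were called with a fold above 1.5, which none of the 9 was. The median log2 difference was -0.21, beside -0.0080 over all genes. The 9 genes thus divided by direction in each comparison, as the plot of differences shows.

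**Figure D2:**
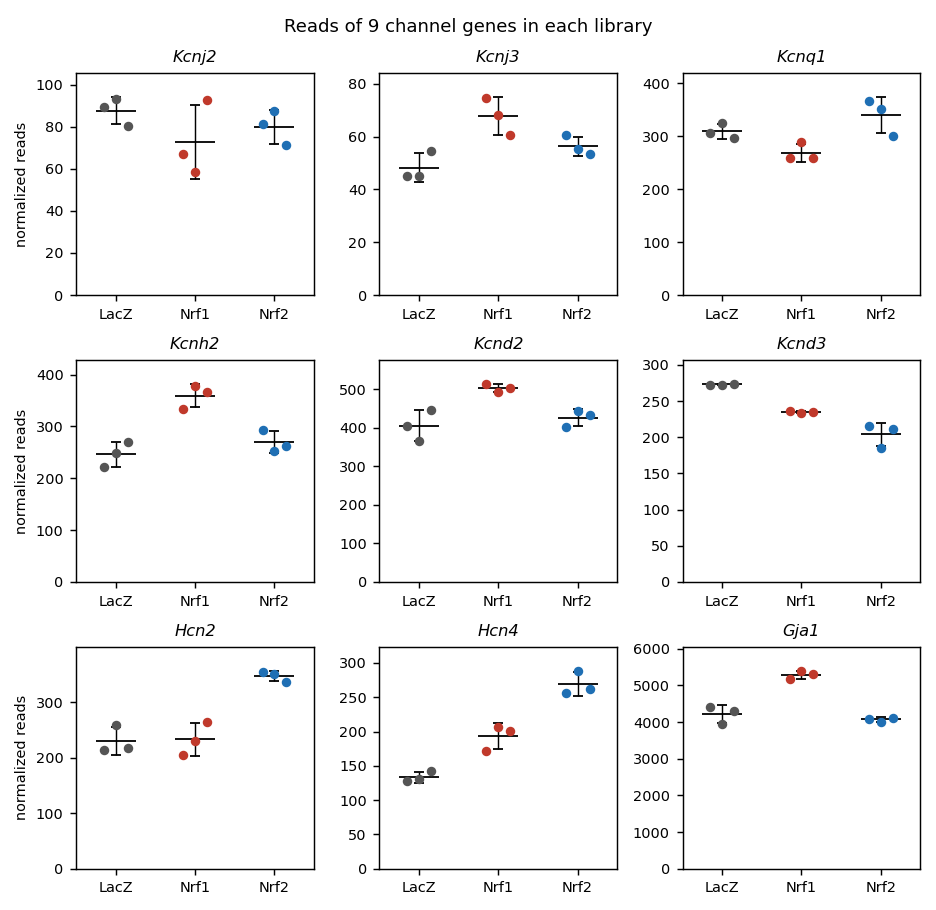
Normalized reads (vertical axes, from 0, on a scale of each gene's own) of the 9 genes in each library of LacZ, Nrf1 and Nrf2; points are libraries a, b and c from left to right, and the bar with whiskers is the mean ± SD of 3. The 3 Nrf2 libraries lie highest for *Hcn4* (257 to 289) and *Hcn2* (336 to 355), and the 3 Nrf1 libraries lie highest for *Kcnh2*, *Kcnd2*, *Kcnj3* and *Gja1*. For *Kcnj3* the lowest Nrf1 library (60.6) and the highest Nrf2 library (60.5) nearly meet.

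Of the pacemaker channels, *Hcn4* had 128, 130 and 142 normalized reads in the LacZ libraries a, b and c. It had 172, 207 and 201 in Nrf1 and 257, 289 and 262 in Nrf2. The 3 groups did not overlap and were ordered LacZ, Nrf1, Nrf2, with means of 133 ± 7.79, 193 ± 18.5 and 269 ± 17.1 (SD, n = 3). The log2 difference from LacZ was 0.53 ± 0.10 (SE) with Nrf1 (adjusted p = 3.01e-04), and under Nrf2 it was 1.01 ± 0.089 (adjusted p = 3.25e-07). Nrf2 exceeded Nrf1 by 0.47 ± 0.085 (adjusted p = 1.08e-04). Over the 15 alternatives tried for each factor, the adjusted p stayed under 0.05, with differences of 0.46 to 0.84 for Nrf1 and 0.85 to 1.06 for Nrf2, and with Nrf1 the gain was under the 1.5-fold limit of 1 of them.

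*Hcn2*, the other HCN channel of the ventricle examined here, had 214, 259 and 218 normalized reads in LacZ. It had 206, 230 and 264 in Nrf1, which overlapped LacZ. In Nrf2 it had 355, 350 and 336, above every library of the other groups. The difference of Nrf1 from LacZ was 0.013 ± 0.10 (SE), with a 95% interval from -0.21 to 0.23 (adjusted p = 0.922). With Nrf2 the difference was 0.59 ± 0.083 (adjusted p = 3.14e-05), and between Nrf2 and Nrf1 it was 0.57 ± 0.082 (adjusted p = 9.30e-06). *Hcn2* thus separated Nrf2 from both other groups, and *Hcn4* separated all 3. When each library was centred on its cardiomyocyte markers, *Hcn2* was called higher with Nrf1 (0.32, adjusted p = 0.0217), and the differences of Nrf2 from Nrf1 were no longer called, at 0.11 for *Hcn2* (adjusted p = 0.213) and 0.010 for *Hcn4* (adjusted p = 0.912).

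The transient outward channels *Kcnd2* and *Kcnd3* moved in opposite directions with Nrf1, except that *Kcnd3* turned to 0.090 when libraries were centred on cardiomyocyte markers. *Kcnd2* had 404, 366 and 447 normalized reads in LacZ, 514, 494 and 503 in Nrf1 and 401, 444 and 435 in Nrf2. Every Nrf1 library exceeded every library of the other groups, and LacZ and Nrf2 overlapped. The difference from LacZ was 0.31 ± 0.071 (SE) with Nrf1 (adjusted p = 0.00114), and under Nrf2 it was 0.077 ± 0.076 (adjusted p = 0.410, 95% interval from -0.085 to 0.24). Nrf2 lay below Nrf1 by a log2 difference of -0.24 ± 0.056 (adjusted p = 0.00108).

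*Kcnd3* had 272, 273 and 274 normalized reads in LacZ, 236, 234 and 234 in Nrf1 and 215, 186 and 211 in Nrf2. The groups were ordered LacZ, Nrf1, Nrf2 from high to low without overlap. The spread among LacZ libraries, 0.273% of the mean, was smaller than the counting error of about 6.35% that 231 to 271 reads per library carry, and limma sets the error of a gene partly from genes of like level. The difference was -0.22 ± 0.073 (SE) with Nrf1 (adjusted p = 0.0149), and under Nrf2 it was -0.42 ± 0.081 (adjusted p = 5.36e-04). Nrf2 was below Nrf1 by -0.21 ± 0.080 (adjusted p = 0.0320), a call lost on leaving out Nrf2 library b or any 1 of the Nrf1 libraries (adjusted p from 0.0603 to 0.163) or on re-centring on the median gene (-0.17, adjusted p = 0.0687). Centred on the cardiomyocyte markers, the difference of Nrf1 from LacZ turned to 0.090 (adjusted p = 0.352).

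Of the delayed rectifiers, *Kcnh2* (the hERG channel) had 222, 248 and 270 normalized reads in LacZ, 334, 378 and 366 in Nrf1 and 293, 253 and 262 in Nrf2. Nrf1 stood above both other groups, which overlapped each other. The difference from LacZ was 0.54 ± 0.084 (SE) with Nrf1 (adjusted p = 3.62e-05), a 1.45-fold gain. With Nrf2 it was 0.13 ± 0.089 (adjusted p = 0.241, 95% interval from -0.063 to 0.32), and Nrf2 lay below Nrf1 by -0.42 ± 0.073 (adjusted p = 8.04e-05).

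*Kcnq1*, the pore of the slow current, had 306, 326 and 297 normalized reads in LacZ, 259, 289 and 260 in Nrf1 and 367, 352 and 301 in Nrf2. The Nrf1 libraries were the lowest, and those of LacZ and Nrf2 overlapped. The difference from LacZ was -0.21 ± 0.076 (SE) with Nrf1 (adjusted p = 0.0260), and under Nrf2 it was 0.13 ± 0.081 (adjusted p = 0.189). Nrf2 exceeded Nrf1 by 0.33 ± 0.078 (adjusted p = 0.00154). The drop with Nrf1 was not called without Nrf1 library a, Nrf1 library c or LacZ library b (-0.17 to -0.18, adjusted p from 0.0804 to 0.0887), and without Nrf2 library c the gain of Nrf2 over LacZ was called at 0.21 (adjusted p = 0.0391). Centred on the cardiomyocyte markers, it was 0.10 for Nrf1 over LacZ (adjusted p = 0.308), and Nrf2 differed from Nrf1 by -0.13 (adjusted p = 0.114).

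The inward rectifiers were the least read of the 9 genes, and their values were the least certain. *Kcnj2* had 89.4, 93.2 and 80.6 normalized reads in LacZ, 67.2, 58.5 and 92.6 in Nrf1 and 81.2, 87.5 and 71.1 in Nrf2. Libraries a and b of Nrf1 were below every LacZ library, and library c was within their range. The difference was -0.29 ± 0.16 (SE) with Nrf1 (adjusted p = 0.127), and under Nrf2 it was -0.13 ± 0.13 (adjusted p = 0.408). Without Nrf1 library c the first was -0.48 (adjusted p = 0.0173), so that library decides the call. The 95% intervals were -0.64 to 0.056 and -0.42 to 0.15, from 60 to 100 reads per library.

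*Kcnj3* (GIRK1) had 45.2, 44.9 and 54.5 normalized reads in LacZ, 74.8, 68.3 and 60.6 in Nrf1 and 60.5, 55.1 and 53.6 in Nrf2. Nrf1 lay above LacZ, and its lowest library (60.6) nearly met the highest of Nrf2 (60.5), while Nrf2 overlapped LacZ. The difference from LacZ was 0.48 ± 0.16 (SE) with Nrf1 (adjusted p = 0.0154), and under Nrf2 it was 0.23 ± 0.16 (adjusted p = 0.243). Nrf2 was lower than Nrf1 by -0.26 ± 0.14, which did not pass (adjusted p = 0.120). The call for Nrf1 was lost without Nrf1 library a (0.41, adjusted p = 0.0706), and centred on the cardiomyocyte markers the difference of Nrf2 from Nrf1 was called at -0.73 (adjusted p = 1.46e-04).

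*Gja1* was read most deeply, with 3513 to 5525 reads per library. It had 4400, 3943 and 4309 normalized reads in LacZ, 5177, 5389 and 5313 in Nrf1 and 4097, 3998 and 4120 in Nrf2. Every Nrf1 library was above all others, and LacZ and Nrf2 overlapped. The difference from LacZ was 0.33 ± 0.041 (SE) with Nrf1 (adjusted p = 3.91e-06), a 1.25-fold gain, and -0.048 ± 0.041 with Nrf2 (adjusted p = 0.340). Nrf2 lay below Nrf1 by -0.38 ± 0.025 (adjusted p = 3.53e-10). The difference of Nrf2 from LacZ was called without LacZ library b (-0.095, adjusted p = 0.0170), with equal library totals (-0.13, adjusted p = 0.00881) and when centred on the cardiomyocyte markers (-0.21, adjusted p = 8.86e-04).

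**Figure D3:**
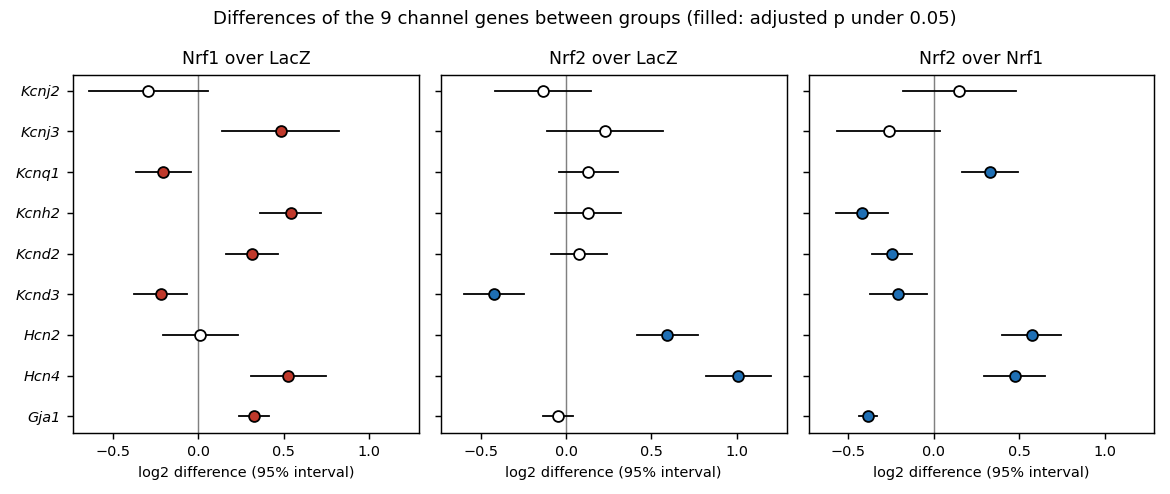
Log2 differences of the 9 genes (horizontal axes) between Nrf1 and LacZ, Nrf2 and LacZ, and Nrf2 and Nrf1; points are fitted differences, lines their 95% intervals, and filled points have an adjusted p under 0.05 over all genes tested. Nrf1 raised 5 and lowered 2 (*Kcnq1* and *Kcnd3*, which turned upwards when centred on cardiomyocyte markers), and the largest of these differences was that of *Hcn4* with Nrf2, at 1.01.

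The share of higher against lower calls among the 9 depended on what the libraries were scaled to. With all libraries centred on the mean of the cardiomyocyte markers, a scaling chosen after the data were seen, 6 were higher and 0 lower with Nrf1, 2 higher and 2 lower with Nrf2, and 0 higher and 5 lower in Nrf2 relative to Nrf1. Over all genes tested, that scaling called 6399 higher and 1774 lower with Nrf1, 1760 and 4672 with Nrf2, and 888 and 8181 between them. It moved the median of all genes to 0.32, -0.16 and -0.47 in these comparisons, since the markers themselves had moved. Of the 11 markers, 3 rose and 7 fell with Nrf1, and 7 rose and 2 fell with Nrf2. The most read of them, *Actc1* (cardiac actin) and *Tnnt2* (cardiac troponin T), differed from LacZ by 0.64 and -0.21 with Nrf1 and by 0.28 and 0.22 with Nrf2. It moves every gene by the same amount, so differences between genes stay as they were. With equal library totals, 2 of the 9 were higher and 2 lower with Nrf2, and the split of calls over all genes went from 3252 higher and 2966 lower to 2482 and 3998.

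Several of the 9 work with partner subunits. These partners were named after their values were seen. *Kcne1*, which joins the *Kcnq1* pore, differed from LacZ by -0.43 with Nrf1 (adjusted p = 0.0688), and under Nrf2 the difference was -0.50 (adjusted p = 0.0583). Neither passed, but without LacZ library b both did, at -0.66 (adjusted p = 0.00311) and -0.73 (adjusted p = 0.00426). With equal library totals both also passed (-0.49, adjusted p = 0.0375, and -0.58, adjusted p = 0.0290). Re-centred on the median gene, adjusted p was 0.0431 for Nrf1 and 0.0519 for Nrf2. Centred on cardiomyocyte markers, it was 0.594 for Nrf1 and 0.0121 for Nrf2. *Kcne2*, which can join *Kcnh2*, had 35.2, 51.6 and 29.6 normalized reads in LacZ, with library b the highest, and 24.6, 19.5 and 30.9 in Nrf1, which overlapped LacZ. Its difference with Nrf1 was -0.60 (adjusted p = 0.0436), which was not called without LacZ library a or b or Nrf1 library a or b, and it was -0.38 without LacZ library b (adjusted p = 0.206). With Nrf2 the difference of *Kcne2* was -0.17 (adjusted p = 0.537). *Kcnj5* (GIRK4), the partner of *Kcnj3* in the muscarinic potassium channel, differed by -0.085 with Nrf1 (adjusted p = 0.299), which turned to 0.22 when centred on cardiomyocyte markers (adjusted p = 0.0208). Under Nrf2 *Kcnj5* rose by 0.22 (adjusted p = 0.0151), a call lost without Nrf2 library b (0.17, adjusted p = 0.0860), with equal library totals (0.13, adjusted p = 0.115) or with that centring (0.056, adjusted p = 0.567). *Kcnj12*, an inward rectifier of the same family as *Kcnj2*, rose by 0.69 with Nrf2 (adjusted p = 0.00355), and with Nrf1 its difference was -0.47 (adjusted p = 0.0702). The latter was called without Nrf1 library c (-0.62, adjusted p = 0.0357), re-centred on the median gene (adjusted p = 0.0460) and with equal library totals (adjusted p = 0.0420). Centred on cardiomyocyte markers it was -0.16 (adjusted p = 0.510). *Kcnip2*, the auxiliary subunit of the *Kcnd* channels in muscle, had 0 to 3 reads per library and was under the minimum for a test in each comparison.

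The other channel genes were taken from lists of 98 symbols, of which 90 were in the tables. With Nrf1, 66 were tested, 20 were called higher and 26 lower, with a median log2 difference of -0.18. With Nrf2, 69 were tested, 29 were higher and 14 lower, with a median of 0.083. The lists differed in direction, as the plot of differences by list shows, and centred on the cardiomyocyte markers the splits were 27 higher and 15 lower for Nrf1 and 20 higher and 19 lower for Nrf2. Counts without that centring, here and below, are beside 34.7% higher and 32.3% lower of all genes for Nrf1 and 28.6% and 26% for Nrf2. Centred counts, here and below, are beside 6399 higher and 1774 lower of 11202 genes for Nrf1. For Nrf2 they are beside 1760 higher and 4672 lower of 11386 genes.

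**Figure D4:**
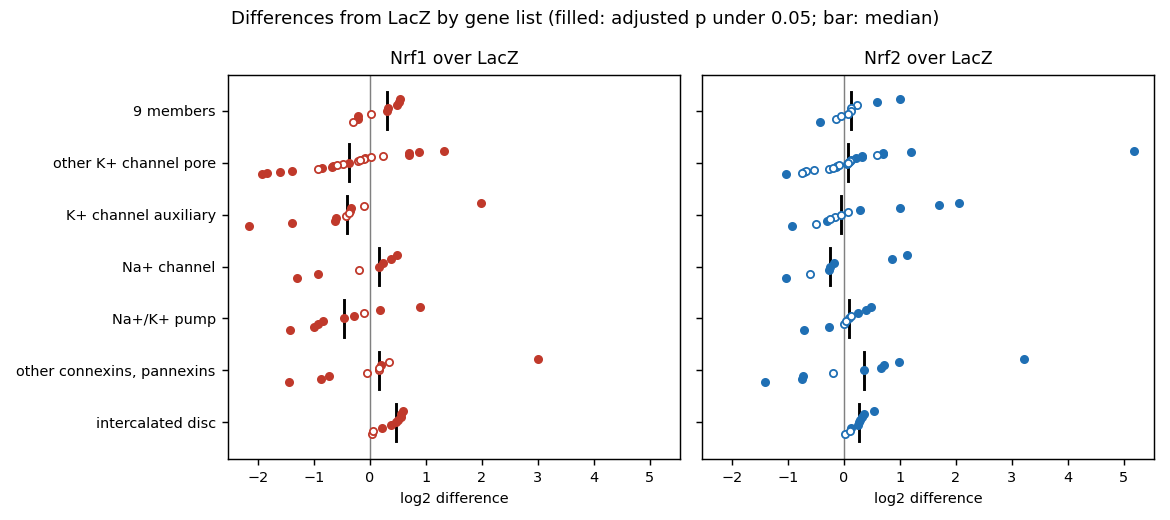
Log2 differences from LacZ (horizontal axes) of the 9 genes and of 6 lists of other channel and intercalated disc genes with Nrf1 and with Nrf2; each point is a gene, filled where its adjusted p was under 0.05, and bars are list medians. The intercalated disc genes lie at or above 0 in both panels, and the point at 5.18 is *Kcna1*, which had 2 reads in all in LacZ, so that its fitted difference depends on the pseudocount.

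Of 31 further pore subunits of potassium channels, 21 were tested with Nrf1, of which 4 rose and 8 fell, with a median of -0.38. Centred on the cardiomyocyte markers the split turned, to 6 higher and 5 lower with a median of -0.072. *Kcnk3* (TASK-1, a background potassium channel) rose most, from 156 to 163 normalized reads in LacZ to 399 to 404 in Nrf1, by 1.32 ± 0.073 (SE, adjusted p = 2.88e-10). *Kcnk2* (TREK-1, a stretch-activated background channel) fell from 232 to 244 reads to 57.8 to 71.2, by 1.84 ± 0.11 on the log2 scale (adjusted p = 9.48e-10). *Kcnb2* also fell, by 1.94 on that scale (adjusted p = 1.66e-04), as did *Kcnh1*, from 9.48 to 25.8 normalized reads to 3.79 to 6.86 (adjusted p = 0.00285), each with 3 to 6 reads per Nrf1 library.

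With Nrf2, 23 of these pore subunits were tested, 7 rose and 2 fell, with a median of 0.078, or 4 and 3 with a median of -0.083 under that centring. *Kcna1*, a voltage-gated channel best known from neurons, had 2 reads over the LacZ libraries, 24 over Nrf1 and 178 over Nrf2. The ratio of Nrf2 to LacZ was 72.0, with a 95% counting interval from 19.6 to 599, which covers counting error only. *Kcna6* rose from 46.0 to 68.7 normalized reads in LacZ to 133 to 148 in Nrf2, by 1.20 ± 0.15 (SE, adjusted p = 1.26e-05), and *Kcnk2* fell by 1.04 ± 0.093 on the log2 scale (adjusted p = 3.66e-07).

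Among auxiliary subunits of potassium channels, 10 of 19 were tested with Nrf1, of which 1 rose and 6 fell (median -0.40), and 11 with Nrf2, of which 4 rose and 2 fell (median -0.050). Centred on the cardiomyocyte markers, 1 was higher and 2 lower with Nrf1 (median -0.091) and 3 higher and 4 lower with Nrf2 (median -0.21). The riser with Nrf1 was *Kcnab2*, a cytoplasmic beta subunit with an aldo-keto reductase fold, which went from 13.0 to 20.2 normalized reads in LacZ to 64.4 to 80.5 in Nrf1 and 54.7 to 59.5 in Nrf2. Its differences were 2.00 ± 0.21 (SE, adjusted p = 6.74e-07) and 1.71 ± 0.21 (adjusted p = 9.76e-06). *Kcnmb4*, an auxiliary subunit of the calcium-activated BK channel, fell by 2.16 ± 0.34 on the log2 scale with Nrf1 (adjusted p = 3.62e-05), and under Nrf2 by 0.92 ± 0.25 (adjusted p = 0.00672). It had few reads, at 23 to 29 per LacZ library, 3 to 8 per Nrf1 library and 14 to 18 per Nrf2 library. *Kcnv1* rose by 2.06 ± 0.32 with Nrf2 (adjusted p = 8.15e-05), from 3 to 7 reads per LacZ library to 28 to 31.

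Transcription factors and other markers of pacemaker and conduction cells summed to 541 to 591 normalized reads in LacZ, 265 to 293 in Nrf1 and 442 to 458 in Nrf2. With Nrf1, 5 of 6 were tested, 0 rose and 4 fell (median -1.01), and with Nrf2, of 6 tested, 1 rose and 3 fell (median -0.23). The most read of them were *Tbx18* (-1.01 with Nrf1, -0.011 with Nrf2, adjusted p = 0.914 for the latter) and *Cntn2* (-1.09 and -1.20). The riser with Nrf2 was *Isl1*, a sinus node factor (1.18, adjusted p = 0.00339), at 8.04 to 11.2 normalized reads in LacZ and 18.5 to 31.5 in Nrf2. The summed level was thus lower than LacZ with both factors and lowest in Nrf1. That sum is weighted to its most read genes: *Tbx18* and *Cntn2* averaged 253 and 69.1 in Nrf2, against 255 and 160 in LacZ. Whether such cells contributed to the *Hcn4* values was not tested.

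Of 12 sodium channel subunits, 7 were tested with each factor. With Nrf1, 4 rose and 2 fell (median 0.16), and with Nrf2, 2 rose and 4 fell (median -0.24). *Scn7a*, an atypical channel that senses sodium, fell by 1.03 ± 0.24 (SE) on the log2 scale with Nrf2 (adjusted p = 0.00201). Of the 9 subunits of the sodium-potassium pump, 2 rose and 6 fell with Nrf1 (median -0.45) and 4 rose and 2 fell with Nrf2 (median 0.096), and its beta subunit *Atp1b1* rose with both, by 0.89 ± 0.045 with Nrf1 (adjusted p = 9.64e-11) and by 0.49 ± 0.045 with Nrf2 (adjusted p = 5.38e-07). For the pump, centring on the cardiomyocyte markers gave 3 higher and 4 lower with Nrf1 (median -0.15) and 3 higher and 2 lower with Nrf2 (median -0.065).

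The genes around *Gja1* moved differently from each other. Of 12 other connexins and pannexins, 9 were tested. With Nrf1, 2 rose and 3 fell (median 0.16), and with Nrf2, 5 rose and 3 fell (median 0.36). The first split turned to 4 higher and 1 lower (median 0.47) when centred on the cardiomyocyte markers, and the other was then 4 and 3 (median 0.20). *Gja5* (connexin 40 of the atria and the conduction system) went from 128 to 148 normalized reads in LacZ to 46.4 to 54.9 in Nrf1 and 49.7 to 54.2 in Nrf2, a log2 difference of -1.41 ± 0.12 (SE) with Nrf2 (adjusted p = 3.13e-07). *Panx2*, a pannexin of intracellular membranes, rose with both factors, by 3.00 ± 0.33 with Nrf1 (adjusted p = 8.22e-07), and under Nrf2 by 3.21 ± 0.33 (adjusted p = 1.55e-06). Its LacZ libraries had 11.1, 33.7 and 9.48 normalized reads, with library b the highest, against 118 to 157 in the other groups.

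Intercalated disc partners, the proteins that anchor connexin and sodium channels at cell borders, had the most uniform direction among these lists. Of 13 listed, 9 were tested, and 7 rose and 0 fell with each factor, with medians of 0.46 for Nrf1 and 0.26 for Nrf2. Between the factors, 2 were higher and 5 lower in Nrf2. Centred on the cardiomyocyte markers, 9 rose and 0 fell with Nrf1, and 4 rose and 1 fell with Nrf2. *Gja1* shared the direction of these partners with Nrf1 and did not pass the test with Nrf2.

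Likeness to each of the 9 was measured among 123 genes of the channel and marker lists as the distance in their log2 differences of Nrf1 and Nrf2 from LacZ, which share the LacZ libraries. *Hcn4* was nearest to the sodium channel subunits *Scn1a* (0.48 and 1.13, at a distance of 0.13) and *Scn4b* (0.38 and 0.87, at 0.21). *Hcn2* was nearest to *Panx1* (-0.054 and 0.67, at 0.10). *Gja1* was nearest to *Gjb2* (0.34 and -0.19, at 0.15) and *Pkp2* (0.38 and 0.13, at 0.19), of which *Pkp2* is a desmosomal plaque protein. Of the potassium channels that passed the test as higher with Nrf1 and did not pass with Nrf2, *Kcnd2* lay near *Pkp2* (at 0.084) and *Kcnj11* (at 0.093), *Kcnj3* near *Dsc2* (at 0.10), a desmosomal cadherin, and *Kcnh2* near *Csf1r* (at 0.092), a macrophage receptor. *Kcnq1* was nearest to *Kcnn4* and *Atp1b3* (at 0.060 and 0.077), *Kcnj2* to *Kcna4* and *Kcnc1* (at 0.090 and 0.16), and *Kcnd3* to *Kcnc1* and *Abcc8* (at 0.16 and 0.17).

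The markers of other cells are set beside these results. All 10 fibroblast markers fell with Nrf1 (median -1.76) and 9 of 10 with Nrf2 (median -0.94), with the most read, *Col1a1* and *Col3a1*, at -1.93 and -0.88 and at -2.07 and -0.99. *Gja1*, which fibroblasts also express, was higher in Nrf1, the group with the lowest fibroblast sum, and the part of fibroblasts in its values was not tested. Of 8 endothelial markers, 1 rose and 6 fell with Nrf1 and 1 rose and 5 fell with Nrf2 (medians -0.88 and -0.72), with *Kdr* at 0.15 and -0.40 and *Tek* at -0.46 and 0.21. Of 8 leukocyte markers, 1 rose and 7 fell with Nrf1 and 0 rose and 7 fell with Nrf2 (medians -1.49 and -1.26), with *Lyz2* at -1.28 and -1.57 and *Cd68* at -1.59 and -0.70. The riser with Nrf1 was *Csf1r*, at 0.45 (adjusted p = 0.00394), with 0.10 under Nrf2 (adjusted p = 0.544).

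Of 6 smooth muscle markers, 3 rose and 3 fell with Nrf1 and 3 rose and 1 fell with Nrf2 (medians -0.45 and 0.077), and the most read, *Acta2* (0.84 and 0.49) and *Tagln* (0.84 and 0.36), also mark immature cardiomyocytes. Of 5 atrial markers, 1 rose and 2 fell with Nrf1 and 2 rose and 1 fell with Nrf2 (medians -0.059 and 0.16), with *Nppa* at -0.62 and -0.21 and *Myl4* at -0.059 and 0.28. Of 6 Schwann cell and neuron markers, 4 were tested, 1 rose and 1 fell with Nrf1 and 3 rose and 0 fell with Nrf2 (medians -0.085 and 0.87), with *Tubb3* at 0.21 and 1.01. Their summed reads were 790 to 832 in Nrf2, against 388 to 439 in the other groups, and it was also in Nrf2 that *Hcn2*, *Kcna1*, *Kcna6* and *Scn1a* were highest. No marker of these lists was at 0 over the libraries of a group. Whether any of these cells contributed to the channel values was not tested.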

How the data were processed

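RNA of 9 libraries of NRVMs was sequenced, 3 each for LacZ, Nrf1 and Nrf2. According to the submitters' processing notes and the paper's methods, 75-bp single-end reads were checked with FastQC 0.11.4, aligned to the rat Rnor_6.0 genome with HISAT2 2.0.4, freed of duplicates with SAMtools 0.1.18 and counted with featureCounts 1.6.0, with edgeR 3.20.5 named for the comparisons. Removing duplicates from single-end reads can lower the most highly read genes.

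The signal the authors deposited is, in each of 3 tables, the mean over a group of read counts divided by size factors. Their columns of fold change, p-value and adjusted p-value were not used. There are 0 unused columns of single samples. Each mean is a sum of 3 whole read numbers times 3 steps, and each group stands in 2 tables, so the reads of each library could be solved for. A single solution was found for 14656 of 14657 genes in LacZ, 14579 of 14579 in Nrf1 and 14746 of 14746 in Nrf2. Which of the numbered replicates a solved library is, is not known. In each table with LacZ, 26 symbols written as dates and 4 rows that share a symbol were left out.

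Differences were fitted with limma 3.58.1 in R 4.3.3 (empirical Bayes with trend) on log2(normalized reads + 1), for each pair of groups over genes with a mean of at least 10, with the authors' size factors. Genes were called at a Benjamini-Hochberg adjusted p under 0.05. Intervals of differences are at 95%. Libraries within a group differed by more than sampling noise (chi-square per gene from 1.50 to 5.00). Each was fitted as 1 sample, although that spread does not show whether the libraries came from separate cultures. Solving and fitting were tested on simulated data. Depth was 7874461 to 9347199 reads in LacZ, 8598296 to 10356088 in Nrf1 and 10197816 to 11960378 in Nrf2.

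The members and gene lists were chosen with earlier results of these data known. Beside the 9 members, the genes named were the 5 channel genes with the highest and the 5 with the lowest difference from LacZ for each factor (where 1 of the groups averaged 10 or more), the 2 genes nearest to each member in both differences (mean of at least 10 in LacZ), and the 2 genes of each marker list with the highest LacZ mean. *Nfe2l2*, *Isl1*, *Csf1r* as a marker and the partner subunits were named in addition, and some genes that this rule names are not reported here. The alternatives were re-centring on the median of genes averaging 100 or more, equal library totals, pseudocounts of 0.5 and 5, no minimum or a minimum of 100, a fold above 1.5, 1 fit of all 9 libraries, and leaving out each library, with centring on cardiomyocyte markers, and leaving out libraries for the partner subunits, added later. Sequences of the rat genome were not at hand, and those of mouse were not used for these rat cells. Figures were drawn with matplotlib 3.10.9.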

Additional observations from a re-analysis of the deposited data

How the results depend on the processing

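No paired analysis was possible because the solved libraries carry no replicate numbers. Over 399 values of the 9 genes under the alternatives, 352 kept their direction and their side of the threshold, 26 were no longer called, 7 became called and 14 reversed. One fit of all 9 libraries, pseudocounts of 0.5 and 5 and no minimum changed no call. Under a minimum of 100, *Kcnj2* and *Kcnj3* were not tested and the called genes of the other channel lists numbered 23 for Nrf1, 26 for Nrf2 and 26 between the factors, against 46, 43 and 44, with fewer genes tested. With a fold above 1.5 they numbered 28, 22 and 23, and of the 9 genes 0 were called for Nrf1 and 0 between the factors, against 7 and 7. Leaving out each library in turn gave 5 to 7, 3 to 4 and 6 to 7 called members, and 41 to 43, 35 to 41 and 40 to 45 called genes of those lists.

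*Hcn2* with Nrf1, not called, reversed to -0.041 when re-centred, to -0.051 with equal totals and ranged from -0.080 to 0.0995 on leaving out 1 library, below 0 without Nrf1 library c, LacZ library a or LacZ library c. *Kcnd2* with Nrf2, not called, reversed to -0.0084 with equal totals. Centring on cardiomyocyte markers, chosen after the data were seen, reversed *Kcnj2* (0.017), *Kcnq1* (0.10) and *Kcnd3* (0.090) with Nrf1, *Kcnq1* (-0.031), *Kcnh2* (-0.032) and *Kcnd2* (-0.084) with Nrf2, and *Kcnj2* (-0.31) and *Kcnq1* (-0.13) between the factors. It turned the calls over all genes to 6399 higher and 1774 lower for Nrf1, 1760 and 4672 for Nrf2, and 888 and 8181 between them. The cause was not tested.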
